A study of Rattus norvegicus with 12 samples.

Results

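The genes described here are 36 genes of skeletal muscle, chosen by name for their place in the contractile apparatus, the calcium and energy supply of the fibre and the control of muscle identity, and measured as messenger RNA in the lumbar mammary gland of young rats. Probes of the array carried the names of 33 of the 36 genes, among 26456 genes with a probe, and for Ryr1, Tcap and Ldb3 no value is given. The gland was taken from female Wistar rats at day of life 21 or 28, with 3 rats in each of 4 groups and 1 array per rat. LP rats were born to dams fed 8.8% protein during pregnancy and NP rats to dams fed 17% protein. Both groups suckled in litters of reduced size and received standard chow after birth, so that the diets differed before birth only, and no allele or drug was part of the design. The labels do not say which rats were littermates, so that the p values below measure the spread between these rats. Replicates are named as in the labels, NP 4a, 5a and 6a against LP 4a, 6a and 7c at day 21 and NP 4f, 5f and 6f against LP 4f, 6f and 7f at day 28.

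Skeletal muscle fibres contract when myosin of the thick filament pulls on actin of the thin filament, a movement switched on by calcium through the troponin complex. Fast fibres and slow fibres use different genes for many of these proteins, so that Myh1, Myh2 and Myh4 encode the myosin heavy chains of fast fibres and Myh7 that of slow fibres. The mammary fat pad of the rat lies under the skin, close to the muscle of the skin and of the body wall, and the gland itself is made of fat, epithelium, vessels and connective tissue.

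Each level below is the background-subtracted signal of a gene's brightest probe on a log2 scale, set against the 75th percentile of that array's gene spots, so that a level of 0 is a bright signal and 1 unit is a 2-fold difference. A deviation is a gene's level minus its own mean over the 12 arrays, and deviations and differences, not levels, are set side by side between genes. The 60-base probes of 3 genes are shown because the results turn on them, with their rn4 positions: Myh4 at chr10:53951729-53951788 and Myh2 at chr10:53889275-53889334 on the plus strand, and Myh7 at chr15:33073880-33073939 on the minus strand. The Myh2 and Myh7 probes are shown in particular because the levels of these paralogs parted on LP 6f. Aligned without gaps, the probes of Myh2 (fast) and Myh7 (slow) overlap over 44 bases, of which 29 match. Capitals mark the 15 bases that differ between them.
Myh4: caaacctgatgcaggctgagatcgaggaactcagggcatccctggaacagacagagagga
Myh2: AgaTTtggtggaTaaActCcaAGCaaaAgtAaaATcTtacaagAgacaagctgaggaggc
Myh7: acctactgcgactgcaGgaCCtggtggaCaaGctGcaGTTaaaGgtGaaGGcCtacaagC

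Because most of the genes moved together from array to array, the 250 bases before the RefSeq start (GRCr8) were searched on both strands for 4 motifs known from muscle genes or core promoters. RefSeq promoters were at hand for 30 of the 36 genes, the others being Fbxo32, Mylpf, Myod1, Myot, Tcap and Tnnt3. The E-box CAGCTG, a form that MyoD-type factors bind, lay in 12 of 30 (40%) against 11.97% of 33469 promoters. TATAAA lay in 15 of 30 (50%, 12.93% of all), the MEF2 motif in 7 of 30 (23.3%, 2.96% of all) and the CArG box, which serum response factor binds, in 3 of 30 (10%, 1.5% of all). A member was counted where any of its listed promoters held the motif, whereas the share of all was taken over single promoters. The shares are thus not strictly alike. The MEF2 motif can overlap TATAAA. The promoters of Acta1 (chr19:68784195-68784444, minus strand), Myh4 (chr10:52421898-52422147, plus strand) and Tnnt1 (chr1:78348785-78349034, plus strand) are shown with these motifs in capitals, as a thin filament gene of all fibres, a fast gene and a slow gene.
Acta1: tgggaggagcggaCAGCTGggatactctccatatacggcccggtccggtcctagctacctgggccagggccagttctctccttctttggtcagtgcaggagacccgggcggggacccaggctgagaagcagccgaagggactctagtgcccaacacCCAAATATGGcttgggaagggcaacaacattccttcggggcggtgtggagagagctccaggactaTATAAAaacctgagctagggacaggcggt
Myh4: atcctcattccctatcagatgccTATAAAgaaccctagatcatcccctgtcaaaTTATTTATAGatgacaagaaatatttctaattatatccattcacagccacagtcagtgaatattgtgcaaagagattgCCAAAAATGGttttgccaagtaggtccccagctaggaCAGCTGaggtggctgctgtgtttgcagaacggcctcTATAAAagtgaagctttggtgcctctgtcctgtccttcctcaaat
Tnnt1: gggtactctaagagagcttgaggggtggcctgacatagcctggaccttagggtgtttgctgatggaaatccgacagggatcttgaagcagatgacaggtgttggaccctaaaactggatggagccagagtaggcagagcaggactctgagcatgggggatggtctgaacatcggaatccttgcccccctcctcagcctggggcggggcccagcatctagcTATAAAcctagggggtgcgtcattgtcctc
Acta1 and Myh4 each held a CArG box, an E-box and TATAAA in this window, Myh4 also held the MEF2 motif, and Tnnt1 held TATAAA alone of the 4 motifs. A match describes the letters of the window and does not show binding.

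On the 12 arrays, 74.8 to 79.6% of spots were well above background, 0 were saturated, and the signal at the 75th percentile lay between 1451 and 2370. All arrays of day 21 were on 1 slide and all of day 28 on another, so slide effects and day effects on a level cannot be told apart, whereas rats of both diets shared the slide of their day. Of the markers of the labelled tissue, 8 of 8 measured epithelial and 7 of 7 measured white fat genes exceeded background clearly on each of the 12 arrays. LP 6a stood apart by its lymphocyte genes, whose mean deviation was -5.69 against -0.41 to 0.96 on the other arrays. The main values that rest on LP 6a are also given without it.

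All 12 arrays showed 25 of the 33 genes well above background, among them Acta1, Myh1, Ckm and Mb. Myh7 was so on 11 arrays, Myh4 on 9, Myh2 and Myot on 8, Smyd1 on 5, Myod1 on 4, and Myf6 and Trim63 on 3. All 33 passed the filter of at least 3 arrays.

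The muscle signal of the gland differed many-fold between rats of the same group, except among the NP rats of day 28. The median deviation of the 33 genes, called the muscle level here, was highest on LP 6a (3.56), NP 6a (2.90) and LP 6f (2.73). It was lowest on LP 4f (-2.22), LP 4a (-2.08) and LP 7f (-2.04). From the lowest to the highest array this was a 54.7-fold range, and the summed signal of the genes ran from 5.28 to 206 times the array's 75th percentile, a 39.0-fold range. Without LP 6a these ranges were 34.8-fold and 30.2-fold. The other 6 arrays lay between -1.11 (NP 4f) and 0.78 (NP 4a). Both the highest and the lowest array of each day were LP arrays, and the LP groups spanned the NP groups on both days. In bulk tissue, fewer fibres and less RNA per fibre cannot be told apart.

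**Figure D1:**
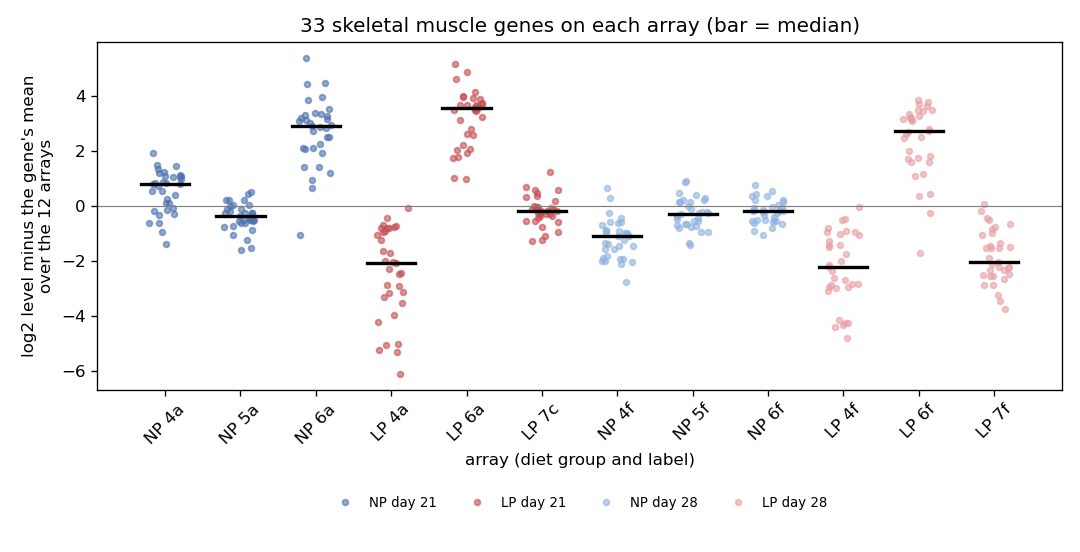
Deviation of each of the 33 skeletal muscle genes (points) from its own mean over the 12 arrays, in log2 units, by array, with the median as a bar. The medians of LP 6a (3.56), NP 6a (2.90) and LP 6f (2.73) stand above the rest, and those of LP 4f (-2.22), LP 4a (-2.08) and LP 7f (-2.04) below.

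Mean muscle levels were 1.10 ± 1.67 (SD, n = 3) in NP and 0.43 ± 2.87 in LP rats at day 21, where the LP mean without LP 6a was -1.13 (n = 2). At day 28 they were -0.53 ± 0.51 in NP and -0.51 ± 2.81 in LP rats. On both days the means lay closer together than the SD of the LP group. The 3 NP rats of day 28 were the most alike, from -1.11 to -0.18.

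The genes followed each other closely across the 12 arrays. NP 6a, LP 6a and LP 6f were the 3 highest arrays for 30 of the 33 genes, the exceptions being Myh7, Tnnt1 and Fbxo32. Of the 30, Myf6 and Trim63 passed the filter of at least 3 arrays through these 3 arrays alone. LP 6a was the highest array for 28 genes, and LP 4a, LP 4f and LP 7f were together the 3 lowest for 21. Over the 12 arrays, Pearson's r of a gene with the level of the other members was at least 0.9 for 26 genes, between 0.8 and 0.9 for Mb, Tnni1, Smyd1 and Trim63, 0.72 for Tnnt1, 0.68 for Myh7 and 0.06 for Fbxo32. Without LP 6a it was at least 0.9 for 24 genes, 0.52 for Myh7, 0.57 for Tnnt1 and -0.38 for Fbxo32. These are descriptions over 12 arrays, each scaled to its own 75th percentile. Genes not well above background on every array, Myod1 and Myf6 among them, enter r with values that have no order.

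The spread of these genes was wide beside that of the array as a whole. After the group means were removed, the residual SD of the 33 genes had a median of 2.26 (0.48 to 3.59), against a median of 0.23 over the 20197 genes tested. Of the 201 genes in the top 1% of residual SD, 24 were members.

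**Figure D2:**
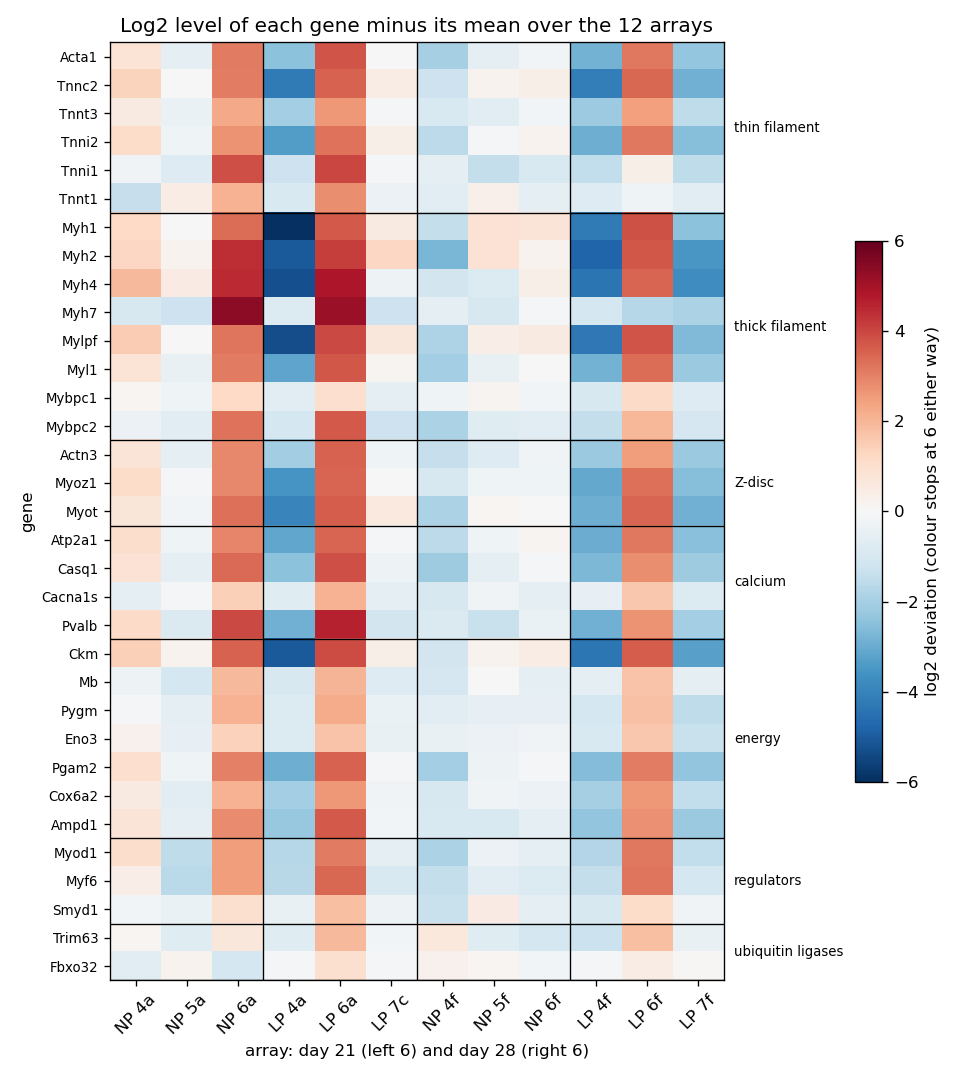
Deviation of each gene (rows, grouped by role) from its mean over the 12 arrays, in log2 units, by array (columns). Most rows are red on NP 6a, LP 6a and LP 6f and blue on LP 4a, LP 4f and LP 7f, whereas Myh7, Tnni1 and Tnnt1 lack the high values on LP 6f, and Fbxo32 does not follow the other rows.

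Acta1, the actin of skeletal muscle thin filaments, had levels of 0.93, -0.45 and 3.22 in NP rats and -2.38, 3.84 and 0.05 in LP rats at day 21, and -1.90, -0.46 and -0.09 in NP rats and -2.74, 3.22 and -2.25 in LP rats at day 28, with replicates in the order given above. Its signal on LP 6a was 95.2 times that on LP 4f. Tnni2 and Tnnt3 encode the inhibitory and the tropomyosin-binding troponin of fast fibres. The levels of Tnni2 were 2.01, 0.67 and 3.64 in NP rats and -2.40, 4.17 and 1.26 in LP rats at day 21, and -0.64, 0.80 and 1.14 in NP rats and -2.03, 4.08 and -1.62 in LP rats at day 28. Those of Tnnt3 were 1.16, 0.23 and 2.88 in NP rats and -1.41, 3.20 and 0.56 in LP rats at day 21, and -0.29, -0.04 and 0.43 in NP rats and -1.55, 3.07 and -0.91 in LP rats at day 28. Both genes had their 3 highest values on the same arrays as Acta1. Tnnc2, the calcium-binding troponin of fast fibres, ranged over 7.79 units, from LP 4a to LP 6a.

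The slow troponins Tnni1 and Tnnt1 behaved differently on 1 array. Tnni1 was at -4.85, -5.40 and -0.80 in NP rats and -5.88, -0.65 and -4.72 in LP rats at day 21, and -5.23, -6.08 and -5.55 in NP rats and -6.13, -4.29 and -6.17 in LP rats at day 28. NP 6a and LP 6a stood far above the other arrays of their day, whereas LP 6f, at -4.29, differed from the mean of NP 6a and LP 6a by -3.56. Tnnt1 was at -2.38, -0.57 and 1.08 in NP rats and -1.92, 1.80 and -1.36 in LP rats at day 21, and -1.69, -0.72 and -1.61 in NP rats and -1.80, -1.25 and -1.65 in LP rats at day 28. It was likewise high on NP 6a and LP 6a, and LP 6f differed from their mean by -2.69 and lay inside the range of the other arrays.

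Among thick filament genes, the fast myosin heavy chains had the widest ranges. Myh1, of fast type IIx fibres, was at 0.36, -0.79 and 2.51 in NP rats and -6.93, 2.86 and -0.25 in LP rats at day 21, and -2.26, 0.07 and -0.04 in NP rats and -5.06, 3.03 and -3.28 in LP rats at day 28. With an SD of 3.1 over the 12 arrays it varied most of the genes measured above background on all of them, and LP 6f exceeded LP 4a 992-fold. Myh2, of type IIa fibres, was at -2.92, -3.94 and 0.27 in NP rats and -9.16, -0.02 and -2.91 in LP rats at day 21, and -6.89, -3.26 and -3.92 in NP rats and -8.95, -0.42 and -7.62 in LP rats at day 28. Myh4, of type IIb fibres, was at -1.16, -2.58 and 1.36 in NP rats and -8.34, 1.78 and -3.38 in LP rats at day 21, and -4.20, -3.91 and -2.74 in NP rats and -7.48, 0.40 and -6.83 in LP rats at day 28. Neither was well above background on LP 4a, LP 4f or LP 7f, nor was Myh2 on NP 4f, so that these values mark only that the signal was low. The fast light chains Mylpf and Myl1 ranged over 9.28 and 6.86 units.

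Myh7, the slow myosin heavy chain, was at -5.75, -6.05 and 0.57 in NP rats and -5.61, 0.37 and -6.06 in LP rats at day 21, and -5.40, -5.75 and -4.87 in NP rats and -5.84, -6.52 and -6.70 in LP rats at day 28. NP 6a and LP 6a alone were high, while the other 10 arrays lay between -6.70 and -4.87, with LP 7f not well above background. On LP 6f, where Myh1 was at its highest, Myh7 differed from the mean of NP 6a and LP 6a by -6.98, or 126-fold. The myosin-binding proteins Mybpc1 (slow) and Mybpc2 (fast) ranged over 2.15 and 5.55 units. Mybpc1 on LP 6f was 0.06 units above the mean of NP 6a and LP 6a, unlike the other slow genes.

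As a group, the 14 fast-fibre genes had mean deviations of 3.28 on NP 6a, 3.75 on LP 6a and 3.12 on LP 6f. The 4 slow-fibre genes (Myh7, Tnni1, Tnnt1 and Mybpc1) had mean deviations of 3.13, 3.24 and -0.11 on the same arrays. Fast minus slow was therefore 0.15 on NP 6a and 0.50 on LP 6a but 3.22 on LP 6f, the highest of the 12 arrays. It was lowest on LP 4a (-2.63) and LP 4f (-2.16), where the fast genes were lowest, and between -1.22 and 1.62 on the remaining arrays. On LP 4a, LP 4f and LP 7f the fast mean includes Myh2 and Myh4 at levels not well above background, and on NP 4f it so includes Myh2. Without both genes, a setting chosen after seeing the data, fast minus slow was -2.36 on LP 4a, -1.93 on LP 4f, -1.02 on LP 7f and 3.14 on LP 6f. Without Mybpc1 it was 3.65 on LP 6f, -0.49 on NP 6a and -0.24 on LP 6a. LP 6f was an array of day 28, whereas NP 6a and LP 6a were arrays of day 21 on the other slide. For this contrast the rat, the day and the slide cannot be told apart.

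Group means of fast minus slow were 0.67 ± 0.83 (SD, n = 3) in NP and -0.52 ± 1.83 in LP rats at day 21, and -0.10 ± 0.81 and -0.05 ± 2.87 at day 28. The differences between the diets were smaller than the SD of the LP rats on both days. Without LP 6a the LP mean of day 21 was -1.03 (n = 2). The LP group of day 28 held both the array with the highest value and arrays at -2.16 and -1.22.

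**Figure D3:**
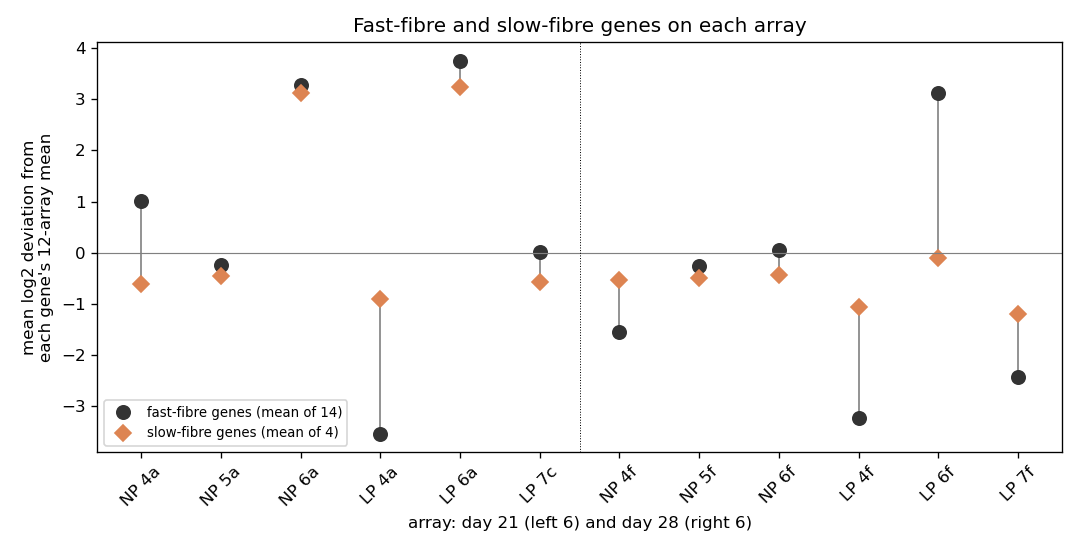
Mean deviation of 14 fast-fibre genes (circles) and 4 slow-fibre genes (diamonds) on each array, in log2 units, with a grey line joining the values of an array. The symbols nearly coincide on NP 6a and LP 6a and are 3.22 units apart on LP 6f.

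Of 6 further genes of slow fibres, 3 were far lower on LP 6f than on NP 6a and LP 6a and 3 were not. On LP 6f, Myl2 (slow regulatory light chain) differed from the mean of NP 6a and LP 6a by -4.61. Myl3 (slow essential light chain) and Tnnc1 (troponin C of slow and cardiac muscle) differed by -3.91 and -3.53. Myoz2, a Z-disc gene, differed by -0.59, and Casq2 and Atp2a2, calcium store genes also used outside slow fibres, by 0.26 and -0.14. Myh6, a heart myosin whose sequence is close to that of Myh7, was at 0.89 on NP 6a and 0.62 on LP 6a and between -6.73 and -3.35 elsewhere, and how far its signal is separate from that of Myh7 was not tested. Of the 9 heart genes listed, Nppa, Nppb and Mybpc3 were well above background on 0 of 12 arrays. Actc1, Myh6, Ryr2 and Tnnt2 were so on 12 arrays, Tnni3 on 11 and Myl7 on 3.

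The other Z-disc and calcium handling genes ranged more widely than Cacna1s, the voltage sensor. Actn3 (fast alpha-actinin), Myoz1 and Myot, all of the Z-disc, ranged over 5.80, 7.04 and 7.60 units, highest on LP 6a. Atp2a1, the calcium pump of fast fibres, was at 1.80, 0.52 and 3.71 in NP rats and -2.36, 4.25 and 0.66 in LP rats at day 21, and -0.80, 0.52 and 0.92 in NP rats and -2.23, 3.93 and -1.76 in LP rats at day 28. Pvalb, a calcium buffer of fast fibres, was at -0.27, -2.27 and 2.56 in NP rats and -4.28, 3.22 and -2.50 in LP rats at day 21, and -2.28, -2.75 and -1.81 in NP rats and -4.27, 1.29 and -3.45 in LP rats at day 28. Both were highest on LP 6a and lowest on LP 4a. On LP 6f, Pvalb differed from the mean of NP 6a and LP 6a by -1.61 and Atp2a1 by -0.05. Casq1, which binds calcium in its store, ranged over 6.59 units. Cacna1s ranged over 3.05 units, was lowest on NP 4f (-2.77) and was higher on LP 4f (-2.27) than on NP 4a (-2.40), and its LP minus NP difference at day 21 was 0.02.

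Energy genes varied by different amounts. Ckm, the muscle creatine kinase, was at 0.92, -0.29 and 3.02 in NP rats and -5.57, 3.39 and -0.14 in LP rats at day 21, and -1.63, -0.32 and -0.08 in NP rats and -4.86, 3.13 and -3.76 in LP rats at day 28. Mb, the oxygen store myoglobin, was at -2.05, -2.81 and 0.18 in NP rats and -2.69, 0.28 and -2.50 in LP rats at day 21, and -2.77, -1.74 and -2.28 in NP rats and -2.27, -0.06 and -2.28 in LP rats at day 28. Ckm spanned 8.96 units and Mb 3.1, with the same 3 arrays at the top. For Mb the other 9 arrays lay between -2.81 and -1.74, so that its low arrays were not separated as those of Ckm were. Pgam2 (glycolysis), Ampd1 (AMP deaminase), Cox6a2 (respiratory chain), Pygm (glycogen breakdown) and Eno3 (glycolysis) ranged over 6.49, 6.05, 4.64, 3.74 and 3.06 units.

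The factors that set muscle identity were near or below background on most arrays. Myod1 was at -5.87, -8.46 and -4.43 in NP rats and -8.66, -3.83 and -7.49 in LP rats at day 21, and -8.85, -7.31 and -7.48 in NP rats and -8.68, -3.76 and -8.41 in LP rats at day 28. It was well above background on NP 4a, NP 6a, LP 6a and LP 6f. Myf6 was at -7.20, -9.18 and -5.08 in NP rats and -9.23, -4.13 and -8.52 in LP rats at day 21, and -9.02, -8.24 and -8.40 in NP rats and -8.99, -4.36 and -8.62 in LP rats at day 28. It was well above background on NP 6a, LP 6a and LP 6f. The arrays on which these factors could be measured were thus the bright arrays of the contractile genes and, for Myod1, also NP 4a, the next in muscle level. Smyd1, a methyltransferase of muscle, was measured above background on 5 arrays and was highest on LP 6a.

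Trim63 and Fbxo32 encode the ubiquitin ligases MuRF1 and atrogin-1, known for their rise in wasting muscle. Trim63 was at -7.36, -8.20 and -6.82 in NP rats and -8.23, -5.55 and -7.65 in LP rats at day 21, and -6.83, -8.18 and -8.54 in NP rats and -8.76, -5.68 and -7.92 in LP rats at day 28, well above background on NP 6a, LP 6a and LP 6f. Fbxo32 was at -3.71, -2.87 and -4.17 in NP rats and -3.17, -2.13 and -3.22 in LP rats at day 21, and -2.82, -2.97 and -3.26 in NP rats and -3.15, -2.66 and -3.02 in LP rats at day 28. Fbxo32 was lowest on NP 6a, where the contractile genes were high, and highest on LP 6a, and with an SD of 0.51 it varied least of the 25 genes measured on all arrays.

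The comparison of LP with NP asked whether the diet of the dam before birth left a difference in the gland. At day 21, 28 of the 33 genes had a lower mean in LP and 5 a higher one, with a median difference (LP minus NP) of -0.64 and a range from -2.52 (Myh4) to 0.74 (Fbxo32), against a median of 0.01 over all genes tested. Of these differences, 12 were at least 2-fold, all lower in LP, where 3.93% of all genes tested were 2-fold apart in either direction. This count rested on single arrays and on the background correction: it was 0 without LP 4a, 5 without NP 6a, 24 without NP 5a, 27 without LP 6a and 7 with normexp background correction. No gene passed limma: 0 of 33 had an adjusted p below 0.05 (0% of all genes), 0 of 33 an unadjusted one (4.34% of all genes), and 0 of 33 both a 2-fold difference and an unadjusted p below 0.05 (0.951% of all genes). The LP and NP arrays were apart without overlap for 0 of 33 genes (11.6% of all genes).

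By role, all 8 thick filament genes, 3 Z-disc genes and 7 energy genes had a lower mean in LP at day 21, with median differences of -1.36, -1.18 and -0.56, as did 5 of 6 thin filament genes (-0.68) and 3 of 4 calcium genes (-1.0). The 14 fast genes were all lower (median -1.18), and the 4 slow genes had a median of -0.05. Myh1 had the largest difference among genes measured on all 6 arrays, -2.14 (SE 2.53, 95% interval -7.77 to 3.49, limma adjusted p = 0.923). Acta1 differed by -0.73 (SE 1.84, limma adjusted p = 0.964). Ckm differed by -1.99 (SE 2.39, limma adjusted p = 0.924). In each of these 3 genes LP 4a was the lowest and LP 6a the highest array of the day.

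For 32 of 33 genes the difference at day 21 was smaller than its own SE. The exception was Fbxo32, 1.68-fold higher in LP (0.74, SE 0.36, 95% interval -0.05 to 1.54, limma adjusted p = 0.861), with LP 4a and LP 7c below NP 5a. The median SE of the 33 genes was 1.66 and the median half-width of the 95% interval 3.70 units, so that differences of the size seen could not be told from 0 with 3 rats per group.

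At day 28 the balance was different. In LP, 13 genes had a lower and 20 a higher mean, with a median difference of 0.13 (-1.15 to 1.23), against -0.05 over all genes. Of 5 genes at least 2-fold apart, Myh1, Myh4, Myh7 and Ckm had a lower and Myf6 a higher mean in LP, where 2.26% of all genes were 2-fold apart in either direction. Myh4, Myh7 and Myf6 include levels not well above background, and with normexp the count was 0. It was 3 without NP 6f, 9 without LP 7f, 14 without LP 4f and 19 without LP 6f. Again 0 of 33 genes had a limma adjusted p below 0.05 (0% of all genes), 0 of 33 an unadjusted one (7.95% of all genes) and 0 of 33 a 2-fold difference with it (0.654% of all genes). All 33 differences were smaller than their SE.

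Ckm had the largest difference at day 28 among genes measured on all 6 arrays, -1.15 (SE 2.39, limma adjusted p = 0.858). Myh7 was the 1 of 33 genes whose LP and NP arrays did not overlap (16.8% of all genes). Its highest LP value was -5.84 and its lowest NP value -5.75, with a difference of -1.01 between the means (SE 1.91, limma adjusted p = 0.841). Fitted on the 6 arrays of the day alone, this difference had an SE of 0.31 (limma adjusted p = 0.627) and an unadjusted p under 0.05. In that fit 149 of the 20197 genes were 2-fold apart with such a p. Myod1 and Myf6 were well above background on 0 NP arrays and on LP 6f alone of the LP arrays, so that no fold is given for them (limma adjusted p = 0.822 and 0.763). Tested as an interaction, the LP minus NP difference of day 28 against that of day 21 had a limma adjusted p of 1.0 for each of the 33 genes, with a median change of 0.83.

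**Figure D4:**
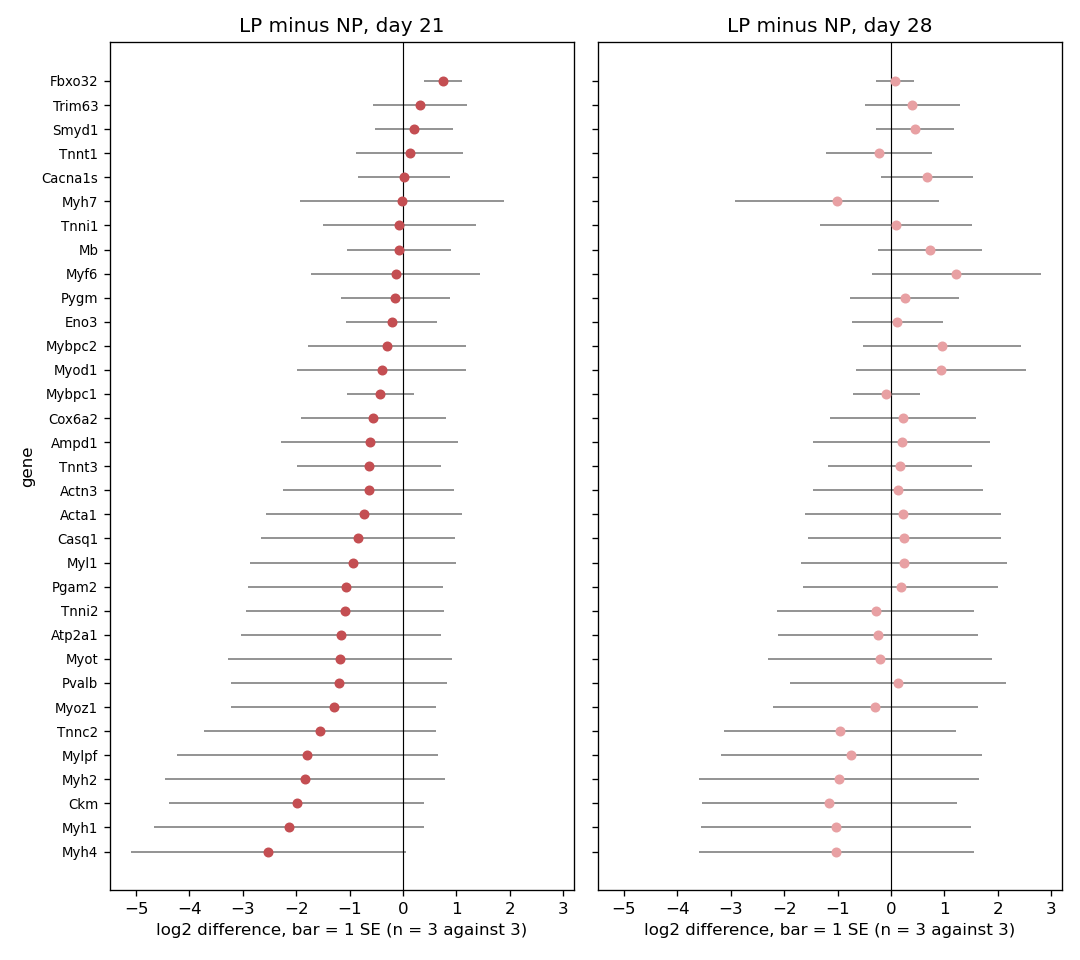
LP minus NP (log2 units) for each of the 33 genes at day 21 (left) and day 28 (right), ordered by the difference at day 21, with 1 SE as a bar (3 rats against 3). The bars cross 0 for all genes at day 28 and for all but Fbxo32 (0.74) at day 21.

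The sign of the differences rested on single arrays. Without LP 4a, 2 of 33 genes were lower in LP at day 21 and the median difference was 0.60, and without NP 6a, 11 were lower and it was 0.23. Without LP 6a, 32 were lower, with a median of -2.22. At day 28, without LP 6f all 33 genes were lower in LP (median -1.44), whereas without LP 4f 2 were lower (0.88) and without LP 7f 5 were lower (0.68). In each of these fits 0 members had an adjusted p below 0.05 in limma, and 0 an unadjusted one. Without NP 5a, Fbxo32 was 2-fold higher in LP (1.1, SE 0.33, limma adjusted p = 0.849) with an unadjusted p below 0.05.

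**Figure D5:**
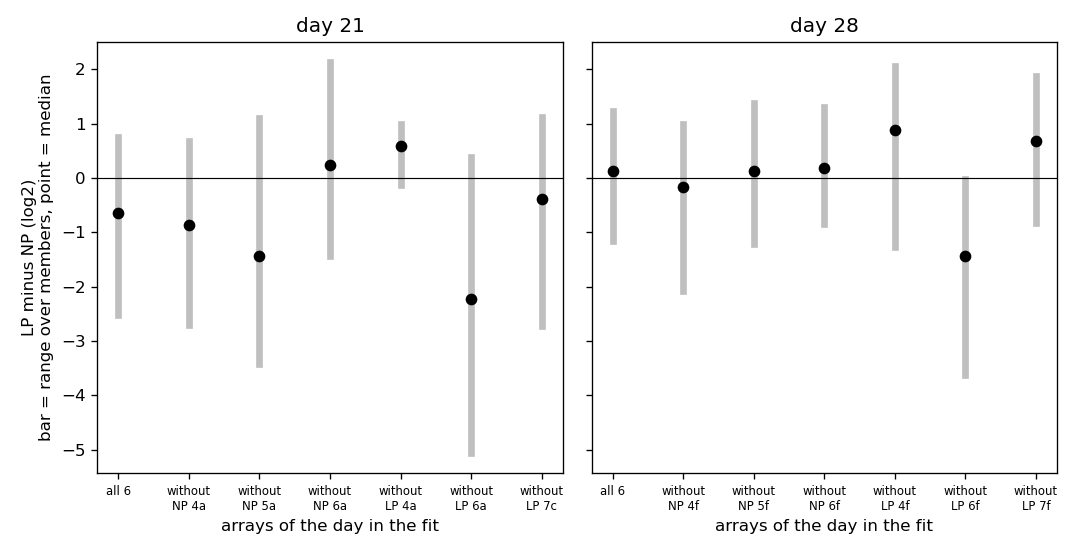
Range (bar) and median (point) over the 33 genes of LP minus NP, in log2 units, with all 6 arrays of a day and with each array left out. The median moves from -2.22 without LP 6a to 0.60 without LP 4a at day 21, and from -1.44 without LP 6f to 0.88 without LP 4f at day 28.

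A further list of 54 skeletal muscle genes (titin, nebulin, desmin and the like), 47 of them tested, moved with the members: its mean level had r = 0.99 with the muscle level over 12 arrays. At day 21, 37 of the 47 had a lower mean in LP (median -0.27) and at day 28, 18 did (median 0.13), and 0 of them had an unadjusted p below 0.05 in limma on either day. Entered as a covariate, the mean level of this list lowered the median SE of the members from 1.66 to 0.36 units and brought their median difference to 0.00 at day 21 and 0.02 at day 28. Members with a 2-fold difference and an unadjusted p under 0.05 were then Myh4 at day 21 (-1.48, SE 0.53) and Tnnc2 (-1.15, SE 0.44), Myh4 (-1.25, SE 0.53) and Ckm (-1.37, SE 0.48) at day 28. All were lower in LP, and the limma adjusted p was 0.688 at day 21 and 0.611 for each at day 28. The Myh4 differences include levels not well above background on LP 4a, LP 4f and LP 7f. In the same fits 2.42% of all genes passed both limits at day 21 and 0.688% at day 28. The covariate is itself a measure of muscle RNA, so that these values describe what remained beside it.

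Outside the members, the 10 genes whose level followed the muscle level most closely over the 12 arrays were Tmod4 (r = 0.996, thin filament capping), Fitm1 (0.994), Hfe2 (0.993, hemojuvelin), Dhrs7c (0.990), Neb (0.988, nebulin), Lmod2 (0.982, actin nucleation), Rpl3l (0.976, a ribosomal protein of muscle) and 3 transcripts without a symbol (0.991 to 0.995). Of 17394 other genes measured on all arrays, 41 had r of at least 0.9 and 0 had r of -0.9 or less. Among genes 2-fold apart at day 21, 24 of 794 (3.03%) had r of at least 0.9, members included, and all 24 were lower in LP. At day 28 it was 9 of 456 (1.98%), against 111 of 20197 (0.550%) of all genes tested. The muscle level was computed from the members, of which 12 are among the 794 genes and 5 among the 456. Its mean at day 21 was lower in LP (0.43) than in NP (1.10), so that the direction of the 24 genes was not independent of it. These shares are therefore descriptions and not a test.

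Gene lists chosen for other tissues moved with the muscle level to different degrees over the 12 arrays. The mean level of the 6 genes listed for brown fat had r = 0.90 (0.85 without LP 6a), but these genes differed. Cox8b had r = 0.91 and ran from -5.73 to 0.60, and Ucp1 had r = 0.88 and was well above background on 8 arrays. Cpt1b had r = 0.48 and Cidea r = -0.41, Dio2 was well above background on 1 array and Zic1 on 0. Whether the signals of Cox8b and Cpt1b came from brown fat or from muscle fibres was not tested. For white fat genes r was -0.10, for mammary epithelium 0.18, for tendon 0.33, for smooth muscle 0.42, for skin 0.43, for nerve 0.08, for heart 0.64, for liver 0.46 and for lymphocytes -0.50. Without LP 6a it was -0.20 for epithelium, 0.02 for smooth muscle, 0.03 for skin, 0.41 for heart and 0.18 for lymphocytes. Between the diets, 8 of 8 epithelial genes had a higher mean in LP at day 21 (median difference 0.79) and at day 28 (0.73), and 8 of 8 lymphocyte genes a lower one (-2.45 and -0.60), with 0 of these genes at an unadjusted p below 0.05 in limma. The lymphocyte difference of day 21 rested on LP 6a. Mean deviations of these genes were 0.73, 0.59 and 0.55 in NP rats and 0.53, -5.69 and 0.10 in LP rats. The skin keratin Krt10 was well above background on 3 arrays and bright on NP 5a (-2.09) and LP 6a (-1.88). The summed skin signal ran from 0.0654 to 1.11 times the 75th percentile in NP and from 0.0517 to 1.82 in LP rats at day 21. The part of these tissues in the results was not tested.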

How the data were processed

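RNA of the lumbar mammary gland of 12 rats was labelled with 1 dye and hybridised to 1 Agilent rat 60-base array per rat. The deposited scanner intensity values had been background subtracted and detrended within each array by Agilent Feature Extraction before the authors deposited them, and were not normalized between arrays. The deposited value table holds a linear ratio that is a constant multiple of each array's scanner intensity (largest relative deviation 9.88e-06). The study's error model (Rosetta Resolver) was not repeated, and its methods do not say whether its p limit was adjusted. Each array held 58717 gene spots for 30367 probes and 26456 genes. The 4259 control spots and 259 to 766 outlier spots per array were left out, spots of a probe were averaged, and log2 intensity was set against the array's 75th percentile.

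A probe was tested where 3 or more of the 12 arrays showed it well above background (in a share of at least 0.5 of its spots), which left 23209 probes, and a gene was given by its brightest probe (20197 genes). Versions were R 4.3.3, limma 3.58.1 and the R package data.table (1.17.8). The limma test used 1 fit of the 4 groups (prior degrees of freedom 1.95), two-sided, with Benjamini-Hochberg adjustment over all tested probes. The fit was tested on simulated data. With 3 arrays a group, the number of arrays limits the precision. Alternatives were quantile normalization, the median as scale, normexp with an offset of 50, other filters, the arrays of a day alone, and trended and robust estimation. Others were the label number as a fixed block, diet with label number as a random block, the row on the slide and the deposited table. The mean over probes, the level of other muscle genes and leaving out each array were also used. No counts underlie these values.

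Members and lists were chosen with earlier results of these data known. By rule, values on each array were given for 17 members of the main roles and fibre types, which include the member with the largest difference of each day and those of largest and smallest SD, and other members by range. Promoter sequences came from the RefSeq table (GRCr8) and probe sequences and rn4 positions from the scanner files. The probe sequence of 1 member is not reported here.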

Additional observations from a re-analysis of the deposited data

How the results depend on the processing

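With 3 rats a group and a residual spread of several-fold, differences smaller than several-fold could not be detected here, and values not well above background have no order. Under each of the 25 alternatives, 0 probes of the array had an adjusted p below 0.05 in limma. Of 838 values of the 17 named genes under these alternatives, 830 kept their call without a reversal, among them 79 whose sign changed by less than 1 SE, and 8 reversed. With 0 probes below 0.05 in any fit the call could not change, so that these counts describe reversals of sign alone. They do not show that the sizes of the differences were stable. The counts over all genes that were 2-fold apart with an unadjusted p below 0.05 (192 at day 21 and 132 at day 28) became 76 and 55 with normexp, 290 and 232 without a filter, and 103 and 52 with probes above background on all arrays. With the arrays of the day alone, 1 member (Myh7) passed both limits at day 28, where 149 of the 20197 genes did. The LP values of Myh7 include LP 7f, which was not well above background. With the level of other muscle genes as a covariate, 1 member passed at day 21 and 3 at day 28, 16 were lower in LP at day 21, and 488 genes passed at day 21. With the row on the slide as a covariate, 7 members passed at day 21 (0.644% of all genes) and 4 at day 28 (0.495% of all genes), 33 were lower in LP at day 28, and Acta1 (-2.29), Tnnt3 (-1.80) and Pvalb (-2.47) reversed at day 28. All NP arrays lay in row 1 and of the LP arrays only LP 4a and LP 4f did, so that diet and row overlap strongly in this fit.

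Some label numbers are shared by NP and LP rats of different dams. Over the probes, deviations of NP and LP rats of a day had r of 0.0886 to 0.132 with the same number and -0.201 to 0.211 with different numbers. These values do not show what a number means, and the main fit did not use it. Within LP, muscle levels were -2.08 (4a) and -2.22 (4f), 3.56 (6a) and 2.73 (6f), and -0.18 (7c) and -2.04 (7f). In NP they were 0.78 (4a) and -1.11 (4f), -0.38 (5a) and -0.29 (5f), and 2.90 (6a) and -0.18 (6f). Whether a number marks a litter across the days was not tested. With the number as a replicate block, 1 member passed both limits at day 21 (Fbxo32) and 3 at day 28 (Myh7, Mb and Cacna1s), 3 members were lower in LP at day 28, and 753 and 257 genes passed. Diet and number together were also fitted as a random block, which joins same-numbered rats of a diet across the days. This block had a correlation of 0.0266 over all tested probes and moved no count by over 1.5 times.

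Leaving out 1 array at a time, members lower in LP numbered 2 (without LP 4a) to 32 (without LP 6a) at day 21 and 2 (without LP 4f) to 33 (without LP 6f) at day 28. Members passing both limits at day 21 numbered 0 to 1, and genes passing 82 (without LP 6a) to 745 (without LP 7c) at day 21 and 83 (without NP 4f) to 396 (without NP 6f) at day 28. At day 21 Myh7 ranged from -2.09 to 2.13, Tnni1 from -1.62 to 1.37 and Tnnt1 from -1.02 to 0.98, lowest without LP 6a and highest without NP 6a. At day 28 Acta1 ranged from -1.68 to 1.30 and Tnnt3 from -1.26 to 1.05, lowest without LP 6f and highest without LP 4f. Beyond what these settings' own construction shows, the cause was not tested.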

Other observations

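Genes of developing muscle, outside the member list, followed the muscle level to different degrees. Myh8, the perinatal myosin heavy chain, had levels from -4.69 on LP 4a to 5.22 on LP 6a and r = 0.93 with the muscle level over the 12 arrays. Myh3, the embryonic myosin heavy chain, ran from -5.26 on LP 7f to -0.52 on LP 6a with r = 0.95. Myog (myogenin) had r = 0.80 and ranged from -4.11 to -2.68. Myf5, a factor of early muscle cells, had r = 0.00 and stayed between -4.18 and -3.36. Pax7, which marks muscle stem cells, was well above background on 0 of 12 arrays. Cdh15 had r = 0.63 and was well above background on 5 arrays. Chrng had r = -0.24, was well above background on 11 arrays and was lowest on LP 6a (-7.33). Myl4, an embryonic and atrial light chain, was highest on NP 6a (-0.37) and LP 6a (-0.46), and on LP 6f it differed from their mean by -2.30. All its values of day 28 (-3.685 to -1.71) lay below all those of day 21 (-1.564 to -0.37), so that this difference was not particular to LP 6f. Myh8 and the fast adult myosins are paralogs, and how far their probes read each other's transcripts was not tested.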
